A study of Homo sapiens with 12 samples.

Results

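The genes described here are 9 of the 17589 genes listed in the expression table, chosen by name: the Notch receptors NOTCH1, NOTCH2 and NOTCH3 and the Notch targets or regulators HES1, HES4, DTX1, NRARP, PTCRA and MYC. They were measured by RNA sequencing in YT cells, a human lymphoid line used as an NK cell line, in 4 groups of 3 libraries. All groups were transduced with lentivirus under the hEF1A promoter, sorted for eGFP, expanded and left unstimulated. CTRL carried eGFP alone. The hnCD16 group carried CD16a with a high-affinity and a non-cleavable substitution. FR1 carried the hnCD16 ectodomain fused to the signalling domains of 2B4, DAP10 and CD3ζ, and FR2 the same ectodomain fused to DAP10 and CD3ζ. The methods describe in vitro data in general as coming from independent experiments, and do not say whether the sequenced replicates were separate transductions, so p-values measure the spread between these samples, which may be technical.

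Notch receptors are cut after binding a ligand on a neighbouring cell, first by an ADAM protease and then by gamma-secretase. The released intracellular part enters the nucleus, joins the DNA-binding protein RBPJ and a Mastermind coactivator, and turns on target genes. In lymphoid cells the pathway is best known for directing progenitors to the T lineage and for its activating NOTCH1 mutations in T cell leukaemia. HES1 and HES4 encode repressors of transcription, DTX1 a ubiquitin ligase, NRARP a feedback inhibitor, PTCRA the pre-T cell receptor alpha chain, and MYC a growth-promoting transcription factor.

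The HES genes are among the Notch targets best known for direct binding by RBPJ, so their promoters are shown. Of the 9 genes, 7 have a promoter window in RefSeq (GRCh38.p14, 250 bases before to 50 after the start site), and DTX1 and MYC were not analysed in this respect. The RBPJ core TGGGAA and the longer GTGGGAA, which contains it, were searched on both strands. HES1 held the core at 2 places, with first bases at -84 and -70 from the start site, and HES4 at 1 place, at -76. The first HES1 match and the HES4 match lie within GTGGGAA. No match lay in the windows of NOTCH1, NOTCH2, NOTCH3, NRARP or PTCRA. The NOTCH2 window, chr1:120069613-120069912, lies well inside the longer GENCODE gene given below, so the NOTCH2 result holds for the RefSeq start site only. The RefSeq start site of PTCRA also lies inside its GENCODE gene. The core was present in 24.0% of all 35116 windows and the longer form in 6.25%, and a match is a description, not a shown binding site. Bases -150 to -51 from each RefSeq start site follow, 5′ to 3′ on the gene's strand, with the core in capitals; HES1 is chr3:194135998-194136097 (plus strand) and HES4 is chr1:1000148-1000247 (minus strand). The RefSeq start site of HES4 lies inside the longer GENCODE gene given below, so the last 25 bases of its stretch lie within that gene.
HES1: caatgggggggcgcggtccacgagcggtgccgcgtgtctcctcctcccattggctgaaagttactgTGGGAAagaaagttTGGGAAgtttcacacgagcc
HES4: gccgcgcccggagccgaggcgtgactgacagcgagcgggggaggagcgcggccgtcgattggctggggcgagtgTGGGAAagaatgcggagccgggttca

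Total counts lay between 17714550 and 18729013 per library. FCGR3A, the gene of CD16a, had 453 to 480 counts per hnCD16 library and 559 to 567 per FR1 library. It had 1012 to 1132 counts per FR2 library and none in CTRL, which fits the CTRL label. The 3 other groups all carry the CD16a ectodomain, so FCGR3A does not check their labels against each other. The libraries fell into 2 pairs of groups, CTRL with hnCD16 and FR1 with FR2, that differed in markers of lineage. Of 14 NK cell markers, 4 were at 1 CPM (counts scaled to the TMM-normalised library size) or more in every CTRL library and 5 in every hnCD16 library, against 11 in FR1 and in FR2. Their summed level was 7770 to 8140 TPM (the deposited length-scaled expression unit) for FR1 and 7480 to 7580 for FR2, against 50.5 to 58.0 for CTRL and 66.7 to 68.9 for hnCD16. With 4 and 5 of the 14 at that level, most of the NK cell list was not met in CTRL or hnCD16. NCAM1 and NCR1, which define NK cells, had at most 5 counts in any library of these groups. In the FR libraries NCR1 was at 46.81 to 58.39 TPM, but NCAM1 was low there too, at 0.35 to 0.71 TPM. The list of 14 includes FCGR3A, whose sequence is part of the hnCD16, FR1 and FR2 constructs. It takes the count from 4 in CTRL to 5 in hnCD16 and is among the 11 of each FR group. FCGR3A adds 20.97 to 21.98 TPM to the hnCD16 sums, at most 52.16 TPM to an FR sum and none in CTRL. The higher count and sums of hnCD16 than of CTRL therefore do not show more of the cells' own NK markers. The list did not move as a whole: NCR3 was at 9.77 to 10.78 TPM in the CTRL and hnCD16 libraries and at most 1.70 TPM in the FR libraries, and KLRD1 had 202 to 282 counts in every library. KLRF1 and TYROBP had at most 3 counts in each FR library. The 8 T cell markers in the table ran the other way. Their summed levels were 50.1 to 53.5 TPM for FR1 and 52.2 to 56.5 TPM for FR2. Those of CTRL were 1550 to 1770 TPM and those of hnCD16 1710 to 1770 TPM. CD3D, CD4, CD8A and CD8B had at most 3 counts in each FR library. CD3E was lower but present there, at 44.02 to 52.47 TPM against 136.37 to 205.85 elsewhere, and made up most of the FR sums. THEMIS kept 37 to 157 counts per FR library. Markers of B cells summed to 23.5 to 27.2, 18.2 to 22.8, 10.8 to 11.5 and 11.1 to 12.6 TPM, and myeloid markers to 3.15 to 5.11, 2.9 to 4.23, 16.7 to 19.1 and 25.5 to 27.7 TPM, each given for CTRL, hnCD16, FR1 and FR2. Within these sums PAX5 was at 7.51 to 9.44 TPM in the FR libraries and at most 0.05 elsewhere, CD79A was at most 0.73 TPM in the FR libraries and 9.25 to 16.03 elsewhere, and ITGAX was at 13.09 to 21.84 TPM in the FR libraries and at most 0.37 elsewhere. The 10 HLA genes summed to 6280 to 6890 TPM for FR1 and 8510 to 9030 for FR2, against 115 to 120 for CTRL and 82.1 to 89.7 for hnCD16. These differences move with every contrast between an FR group and CTRL or hnCD16 below. The part of the marker and HLA differences in those results was not tested, and a difference between the cell populations and an effect of the construct cannot be told apart. Fewer cells of a type and less RNA per cell cannot be told apart in these bulk samples either.

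In FR1 and FR2 the receptor NOTCH1 and the targets HES1, HES4, DTX1 and MYC were lower, and the receptor NOTCH2 was higher, than in hnCD16 and CTRL. HES1 was nearly absent and HES4 had no count in either FR group. A differentially expressed gene (DEG) was a gene with at least a 2-fold difference (1 on the log2 scale) and an adjusted p of at most 0.05 by edgeR's quasi-likelihood test. By this rule 6 of the 7 genes tested were DEGs in each of the 4 comparisons of an FR group with hnCD16 or CTRL, 1 higher and 5 lower. The share of all 13657 genes tested that were DEGs, in either direction, was 38.3% in FR1 against hnCD16, 39.5% in FR2 against hnCD16, 38.0% in FR1 against CTRL and 38.2% in FR2 against CTRL. The 4 comparisons share their samples and are not independent of each other. The genes described here were chosen with earlier results of these data known. HES1, HES4 and DTX1 also passed the filter on low counts through CTRL and hnCD16 alone. For both reasons the count of 6 is a description. NRARP and PTCRA did not pass the filter.

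**Figure D1:**
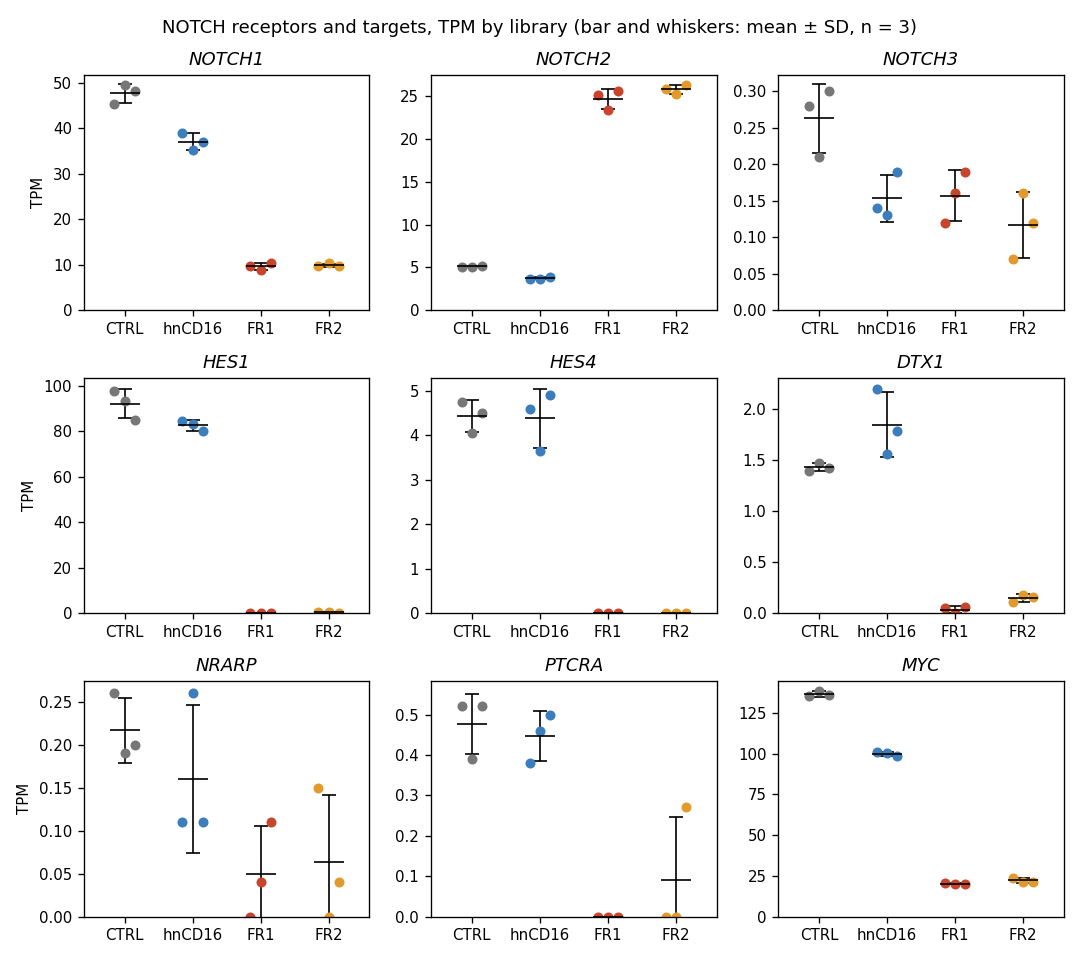
TPM of each of the 9 genes (vertical axis, from 0, scaled per gene) in the 12 libraries, by group (horizontal axis). Points are libraries and black bars with whiskers are the mean ± SD of 3 libraries, with whiskers cut at 0; NOTCH2 alone sits higher in FR1 and FR2, and HES4 lies at 0 in all FR libraries.

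NOTCH1 (NCBI Gene 4851; GRCh38, chr9:136494433-136546048, minus strand) encodes the receptor most used by T lineage cells. It stood at 45.46, 49.48 and 48.13 TPM in CTRL and at 39.04, 35.16 and 37.10 TPM in hnCD16. It stood at 9.65, 8.80 and 10.39 TPM in FR1 and at 9.74, 10.29 and 9.65 TPM in FR2. Every FR library was below every other library, CTRL and hnCD16 did not overlap, and FR1 and FR2 did. In FR1 against hnCD16 the log2 fold change was -1.84 (SE 0.0661, adjusted p = 2.37e-14, edgeR), a 3.59-fold fall. NOTCH1 fell 3.53-fold in FR2 against hnCD16, 4.16-fold in FR1 against CTRL and 4.10-fold in FR2 against CTRL.

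NOTCH2 (NCBI Gene 4853; chr1:119911553-120100779, minus strand) encodes a related receptor, known in lymphoid tissue for marginal zone B cells. Its level was 5.04, 5.08 and 5.19 TPM in CTRL and 3.66, 3.68 and 3.85 TPM in hnCD16. In FR1 it was 25.09, 23.32 and 25.62 TPM and in FR2 25.79, 25.26 and 26.35 TPM. The order was the reverse of that of NOTCH1 between the pairs of groups, with no overlap between them. The log2 fold change was 2.78 (SE 0.0543, adjusted p = 4.52e-18, edgeR) in FR1 against hnCD16, a 6.89-fold rise. NOTCH2 rose 7.16-fold in FR2 against hnCD16, 5.61-fold in FR1 against CTRL and 5.83-fold in FR2 against CTRL.

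NOTCH2 has near-identical partial copies, NOTCH2NLA, NOTCH2NLB and NOTCH2NLC, and the estimates may divide reads among them, so single values of these genes are uncertain. All 3 copies were also DEGs and higher in the FR groups, with log2 fold changes in FR1 against hnCD16 of 5.18 for NOTCH2NLA, 3.55 for NOTCH2NLB and 2.20 for NOTCH2NLC. With the counts of NOTCH2 and the copies summed before the fit, an alternative chosen after seeing the data, the log2 fold change was 3.06 in FR1 against hnCD16 and 3.09 in FR2 against hnCD16.

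NOTCH3 (NCBI Gene 4854; chr19:15159038-15200995, minus strand), a receptor best known from vascular smooth muscle, was near the limit of detection. CTRL had 23, 17 and 23 counts and hnCD16 12, 11 and 15. FR1 had 10, 13 and 15 counts and FR2 6, 13 and 10. The FR libraries overlapped those of hnCD16. In FR1 against hnCD16 the log2 difference was 0.10 (SE 0.320, adjusted p = 0.795, edgeR). In FR2 against CTRL it was -0.94 (SE 0.308, adjusted p = 0.00971, edgeR), under the fold threshold, and it passed that threshold at -1.07 with library size as the only scaling, -1.07 without CTRL replicate 2 and -1.21 without FR2 replicate 2.

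Set on the per-length TPM scale, the receptor transcripts changed places. NOTCH1 made up 87.1% ± 0.854 (SD, n = 3) of the summed TPM of NOTCH1 to NOTCH4 for CTRL and 87.4% ± 1.06 for hnCD16, but 27.8% ± 0.709 for FR1 and 27.5% ± 1.07 for FR2. NOTCH2 made up 9.32%, 8.80%, 71.6% and 71.7% in the same order. The sum over the 4 receptors was 34.5 ± 1.98 TPM for FR1 and 36.0 ± 0.306 TPM for FR2. These sums were below the 42.4 ± 1.76 TPM of hnCD16 and the 54.8 ± 1.79 TPM of CTRL. The sums and shares leave out the NOTCH2NL copies, each at 8.16 to 24.82 TPM in the FR libraries and 0.39 to 4.51 elsewhere. If reads of NOTCH2 were assigned to these copies, the FR sums would be higher, so the order of the sums is uncertain. The NOTCH1 shares did not overlap between an FR group and hnCD16 or CTRL, with p = 0.1 in each of these 4 comparisons by a two-sided exact permutation test, the smallest value that 3 against 3 libraries allow (0.15 after Benjamini-Hochberg adjustment over the 6 comparisons). The share differed by less than the spread between libraries in hnCD16 against CTRL (exact permutation p = 0.7, adjusted 0.8) and in FR1 against FR2 (exact permutation p = 0.8, adjusted 0.8).

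HES1 (NCBI Gene 3280; chr3:194136148-194138732, plus strand), whose promoter is printed above, was the most abundant of the HES genes in CTRL and hnCD16. It stood at 97.63, 93.35 and 85.03 TPM in CTRL and at 84.36, 83.31 and 79.96 TPM in hnCD16. In FR1 it had 3, 2 and 1 counts, and in FR2 9, 9 and 5 counts, against 1251 to 1560 counts in every other library. From the summed counts HES1 was 620-fold lower in FR1 than in hnCD16 (95% exact interval 285 to 1690) and 165-fold lower in FR2 than in hnCD16 (110 to 260). These intervals cover counting error only. Against CTRL it was 623-fold lower in FR1 and 166-fold lower in FR2. With no filter on low counts, so that its level did not decide whether it was tested, the edgeR adjusted p of HES1 was 4.06e-21 in FR1 against hnCD16 and 5.43e-21 in FR2 against hnCD16.

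HES4 (NCBI Gene 57801; chr1:998962-1000172, minus strand) was lower in level than HES1 and showed the same split of groups. It stood at 4.75, 4.05 and 4.50 TPM in CTRL and at 4.59, 3.64 and 4.90 TPM in hnCD16, from 32 to 46 counts. No count was recorded in any of the 6 FR libraries. Against a limit of 3 counts over a group, HES4 was lower than in hnCD16 by at least 38.0-fold (FR1) and at least 38.7-fold (FR2). The bounds against CTRL were at least 35.8-fold lower for FR1 and at least 36.4-fold lower for FR2. Over these 4 comparisons, with no filter on low counts, the edgeR adjusted p of HES4 lay between 4.05e-09 and 6.17e-09.

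DTX1 (NCBI Gene 1840; chr12:113056730-113098028, plus strand) had 1.39, 1.47 and 1.42 TPM in CTRL and 2.19, 1.56 and 1.78 TPM in hnCD16. It had 2, 0 and 2 counts in FR1 and 5, 7 and 7 counts in FR2, against 54 to 91 elsewhere. All 4 groups were apart from each other. DTX1 was 52.8-fold lower in FR1 than in hnCD16 (95% exact interval 20.3 to 196) and 11.3-fold lower in FR2 than in hnCD16 (7.08 to 19.2). With no filter on low counts the edgeR adjusted p of DTX1 was 7.45e-12 and 1.38e-10. Against CTRL it was 36.7-fold lower in FR1 and 7.86-fold lower in FR2.

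NRARP and PTCRA were too low for the main test. NRARP (NCBI Gene 441478; chr9:137299631-137302271, minus strand) had 7, 5 and 5 counts in CTRL and 3, 7 and 3 in hnCD16. FR1 had 0, 1 and 3 counts and FR2 4, 0 and 1. The FR libraries overlapped the others, and the summed counts were 3.04-fold lower in FR1 than in hnCD16 with an interval from 0.939 to 12.8. Against CTRL the summed counts were 3.71-fold lower in FR1 (1.21 to 15.2) and 3.02-fold lower in FR2 (1.07 to 10.5), intervals that leave out the spread between libraries. Without the filter on low counts the edgeR test called no difference (adjusted p from 0.0627 to 0.198 over the 4 FR comparisons).

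PTCRA (NCBI Gene 171558; chr6:42915989-42925838, plus strand) had 4, 3 and 5 counts in CTRL and 4, 4 and 5 in hnCD16. It had 0 counts in every FR1 library and 0, 0 and 3 in FR2. It was at least 4.05-fold lower in FR1 than in hnCD16 and at least 3.49-fold lower in FR1 than in CTRL. Without the filter on low counts the edgeR adjusted p was 0.00312 for FR1 against hnCD16 and 0.005 for FR1 against CTRL, both DEGs, and 0.0641 and 0.105 for FR2 against the same groups.

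MYC (NCBI Gene 4609; chr8:127735434-127742951, plus strand) was the most abundant of the 9 genes by TPM in CTRL and hnCD16, and was second to NOTCH2 in FR1 and FR2. It stood at 135.54, 138.51 and 135.91 TPM in CTRL and at 100.79, 100.58 and 98.32 TPM in hnCD16. In FR1 it stood at 20.64, 20.08 and 19.81 TPM and in FR2 at 23.81, 21.37 and 21.27 TPM. The 4 groups did not overlap, with CTRL highest and FR1 lowest. MYC fell 4.75-fold in FR1 against hnCD16 (log2 -2.25, SE 0.0572, adjusted p = 1.72e-16, edgeR), 4.35-fold in FR2 against hnCD16, 5.88-fold in FR1 against CTRL and 5.38-fold in FR2 against CTRL.

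**Figure D2:**
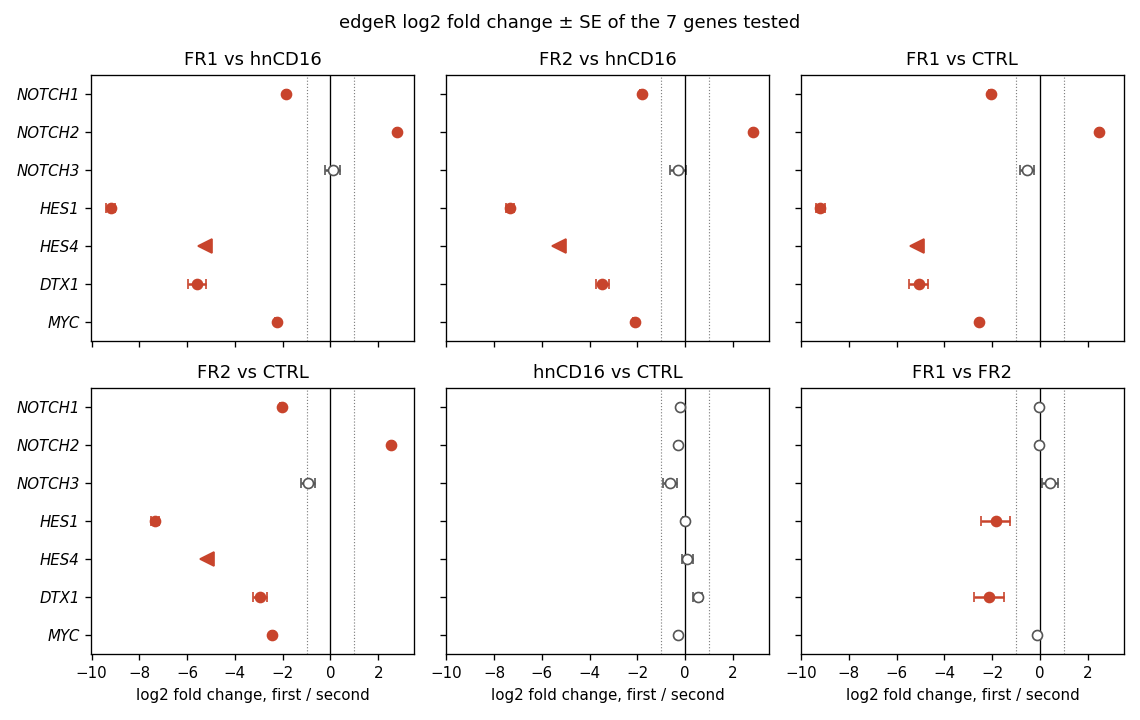
Log2 fold change of the first over the second group named (horizontal axis) with its standard error, for the 7 genes tested (vertical axis) in the 6 comparisons. Filled points are DEGs, open points are not, dotted lines mark a log2 fold change of 1 in either direction, and arrowheads mark HES4 at its upper bound because it had 0 counts in FR1 and FR2; 6 genes are filled or bounded in each FR comparison with hnCD16 or CTRL and none in hnCD16 against CTRL.

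In hnCD16 against CTRL, which compares a transduced receptor with eGFP alone, 0 of the 7 genes were DEGs by edgeR and 0 by DESeq2, where 0.527% of all genes were DEGs by edgeR. An unadjusted p under 0.05 was given to 5 of the 7. By p alone, 4 of the 7 had an adjusted p of at most 0.05 (edgeR), and all 4 differed by less than 2-fold. The share of all genes at these limits of p is not given here, so the counts of 5 and 4 are descriptions. NOTCH1 was lower in hnCD16 by a log2 difference of -0.21 (adjusted p = 0.0095), NOTCH2 by -0.30 (adjusted p = 0.000656) and MYC by -0.31 (adjusted p = 0.00023). DTX1 was higher by 0.53 (adjusted p = 0.0268). HES1 differed by -0.01 (SE 0.0733, adjusted p = 0.950) and HES4 by 0.09 (SE 0.219, adjusted p = 0.801), and the sign of both changed under other settings. Scaling by library size alone moved the median of all genes by more than 0.1 here, from -0.01 to -0.12.

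FR1 and FR2 differ in the 2B4 domain, and 2 of the 7 genes were DEGs between them, where 1.93% of all genes were DEGs. HES1 was lower in FR1 by a log2 difference of -1.85 (SE 0.606, adjusted p = 0.0241, edgeR), from 6 summed counts in FR1 and 23 in FR2, a ratio of 3.77 with a 95% exact interval of 1.49 to 11.3. DTX1 was lower in FR1 by -2.13 (SE 0.639, adjusted p = 0.0149, edgeR), from 4 and 19 summed counts, a ratio of 4.67 (1.55 to 18.9). The libraries of FR1 and FR2 did not overlap for either gene. Both differences rest on few counts. HES1 lost its call without FR1 replicate 2, FR1 replicate 3, FR2 replicate 1 or FR2 replicate 2 (adjusted p between 0.0501 and 0.0855), and DTX1 without FR1 replicate 2 (adjusted p = 0.0669). NOTCH1 (-0.02, SE 0.0683), NOTCH2 (-0.06, SE 0.0474) and MYC (-0.13, SE 0.0591) differed by less than 2-fold and did not pass the test (adjusted p = 0.832, 0.402 and 0.104, edgeR), and HES4 had no count in either group.

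The transcript table resolved the genes further. NOTCH1 counts were divided between NM_017617 and the predicted XM_011518717, whose effective length was 86.2% of the former. Both fell: over CTRL, hnCD16, FR1 and FR2, NM_017617 ran at 20.87 to 25.71, 17.57 to 18.89, 5.71 to 7.42 and 5.40 to 7.31 TPM, and XM_011518717 at 22.48 to 24.59, 17.59 to 20.15, 2.90 to 3.95 and 2.43 to 4.42 TPM. XM_011518717 took 25.6% to 37.4% of NOTCH1 counts for FR1 and 22.3% to 40.4% for FR2, against 43.0% to 50.4% for CTRL and 46.3% to 48.1% for hnCD16. These shares are estimates for overlapping transcripts and were not tested.

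**Figure D3:**
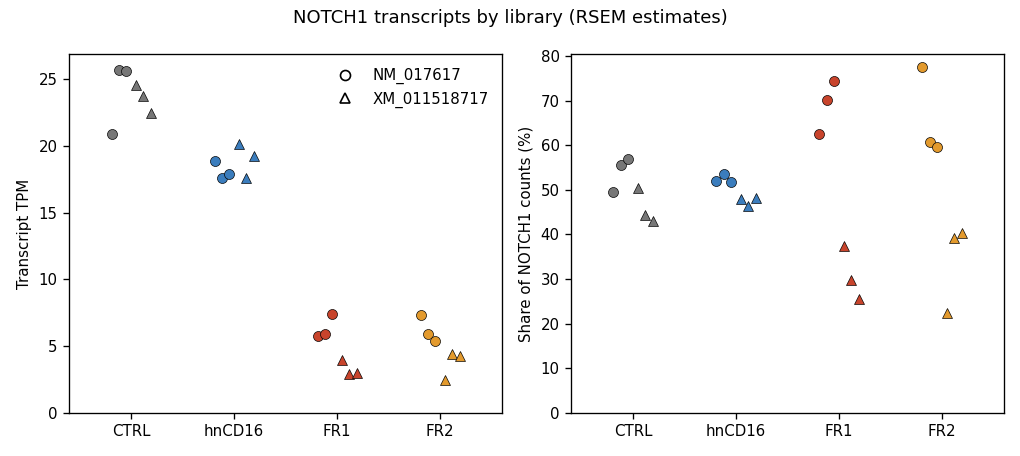
Estimated TPM (left, vertical axis) and share of NOTCH1 counts in percent (right, vertical axis) of NM_017617 (circles) and XM_011518717 (triangles) in each library, by group. XM_011518717 has 43.0% or more of the counts in all CTRL and hnCD16 libraries and 40.4% or less in all FR libraries.

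NM_024408 carried 99.1% or more of the NOTCH2 counts in every library, and the shorter NM_001200001 reached at most 22.73 counts. MYC was mainly NM_002467, at 81.7% to 91.1% of counts over all libraries. HES1, DTX1, NRARP and NOTCH3 had 1 listed transcript each. HES4 was spread over 3 and PTCRA over 4, on too few counts to compare.

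Of the other genes on a Notch pathway list of 65, 63 were in the table and 55 were tested. Their DEGs were 21 in FR1 against hnCD16 (10 higher and 11 lower), 25 in FR2 against hnCD16 (14 and 11), 23 in FR1 against CTRL (10 and 13), 25 in FR2 against CTRL (11 and 14), 0 in hnCD16 against CTRL (also 0 by DESeq2, with 37 at an unadjusted p under 0.05 by edgeR) and 2 in FR1 against FR2 (both lower). As shares of those tested these were 38.2%, 45.5%, 41.8% and 45.5% in the 4 FR comparisons, beside 38.3%, 39.5%, 38.0% and 38.2% of all genes in the same order. In FR1 against FR2 the share was 3.64%, beside 1.93% of all genes, and in hnCD16 against CTRL 0%, beside 0.527%. The share of all genes at an unadjusted p under 0.05 is not given here. The median log2 fold change of the list was 0.17 in FR1 and 0.01 in FR2 against hnCD16, beside -0.01 and -0.03 over all genes. In all 4 FR comparisons 21 of the 55 were DEGs in the same direction, or 38.2%, where 31.7% of all genes were. The list was chosen with earlier results of these data known. Some of its genes passed the low-count filter through just the FR groups, such as PSEN2, or just CTRL and hnCD16, such as NEDD4. The counts and shares of the list are therefore descriptions.

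**Figure D4:**
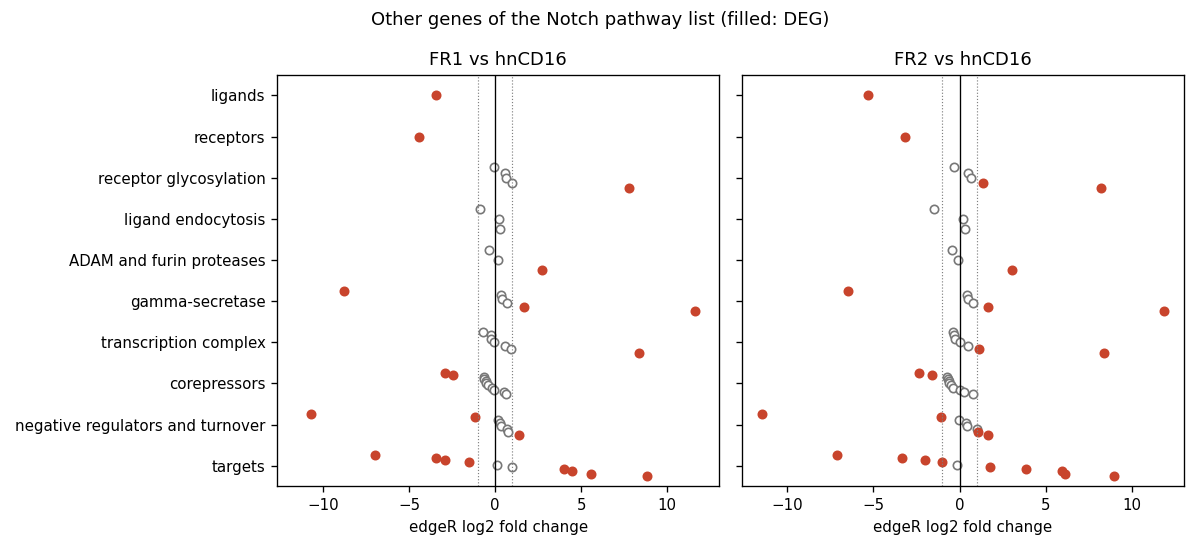
Fitted log2 fold change (horizontal axis) of the 55 other pathway genes tested, by role (vertical axis), in FR1 against hnCD16 (left) and FR2 against hnCD16 (right); filled points are DEGs, and dotted lines mark a log2 fold change of 1 in either direction. Fitted values of genes with few counts in a group, such as PSEN2, depend on the prior count; 21 points are filled on the left and 25 on the right.

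Of the ligands, JAG1 alone passed the filter. DLL3, named after its values were seen, had 1 summed count in hnCD16, 11 in FR1 and 23 in FR2, ratios to hnCD16 of 11.8 (95% exact interval 1.71 to 506) and 24.2 (3.92 to 996). JAG1 had 29 to 36 counts in each hnCD16 library, 1 to 5 in each FR1 library and 0 to 2 in each FR2 library, and was 11.5-fold lower in FR1 than in hnCD16 (95% exact interval 5.59 to 27.3). NOTCH4, the remaining receptor, had 0 to 4 counts per FR1 library and 4 to 7 per FR2 library, against 58 to 77 for CTRL and 49 to 65 for hnCD16. It was 22.7-fold lower in FR1 (10.8 to 57.3) and 8.99-fold lower in FR2 (5.52 to 15.5) than in hnCD16.

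Of 5 genes that modify the receptors with sugars, LFNG, a Fringe enzyme that changes which ligands a receptor answers to, rose from 3 summed counts in hnCD16 to 697 in FR1 and 971 in FR2. Its relative MFNG, the most abundant of the 5, was 45.3 ± 1.01 TPM in hnCD16 and 68.0 ± 3.17 in FR1 (log2 0.65, under the fold threshold). Of 3 ligand endocytosis genes 0 were DEGs in FR1 or FR2 against hnCD16 by edgeR or DESeq2, and 2 had an unadjusted p under 0.05 in each (edgeR). MIB1, the most abundant, was at 10.7 ± 1.49 TPM in hnCD16 and 12.6 ± 0.983 in FR1.

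Among the proteases, FURIN, which cuts receptors on their way to the surface, rose 6.48-fold in FR1 and 8.29-fold in FR2 against hnCD16. ADAM10, which makes the first cut after ligand binding, was at 61.7 ± 1.85 TPM for FR1, 52.6 ± 2.35 for FR2 and 57.1 ± 7.71 for hnCD16. In gamma-secretase, 3 of 6 subunits were DEGs in all 4 FR comparisons, where 31.7% of all genes were. PSEN2 passed the low-count filter through the FR groups alone and APH1B through CTRL and hnCD16 alone, so this count is a description. The alternative forms APH1A and APH1B moved in opposite directions. PSEN2, a catalytic subunit, had 0 counts in hnCD16 and 349 to 391 in FR1, at least 402-fold higher. APH1B fell from 918 to 1081 counts in hnCD16 to 0 to 3 in FR1 and 8 to 14 in FR2, while APH1A rose 3.21-fold in FR1 and 3.14-fold in FR2.

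In the transcription complex MAML2, a Mastermind coactivator, rose from 4 summed counts in hnCD16 to 1354 in FR1 and 1402 in FR2. SNW1, the most abundant of the 7 genes, was at 172 ± 6.30 TPM in hnCD16 and 136 ± 1.17 in FR1. RBPJ, named after its values were seen because its motif was searched, was at 31.1 ± 0.269 TPM for FR1 and 27.2 ± 0.637 for FR2, beside 33.9 ± 2.26 for CTRL and 35.1 ± 2.65 for hnCD16. By edgeR its log2 difference from hnCD16 was -0.08 for FR1 (adjusted p = 0.161) and -0.32 for FR2 (adjusted p = 1.09e-05), both under the fold threshold.

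Of 11 corepressors, TLE1 and TLE4, of the Groucho family that HES proteins recruit, were DEGs in all 4 FR comparisons. Of all genes tested, 31.7% were. TLE3, of the same family and named after its values were seen, went the other way. Its log2 difference from hnCD16 was 0.62 for FR1 and 0.76 for FR2, both under the fold threshold. TLE1 fell 7.54-fold in FR1 and 5.14-fold in FR2 against hnCD16, and TLE4 fell 5.54-fold and 2.99-fold. HDAC2, the corepressor with the highest mean over the 12 libraries (174 TPM, beside 171 for HDAC1), was at 208 ± 11.5 TPM in hnCD16 and 151 ± 3.17 in FR1, under the fold threshold.

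Of the 8 negative regulators tested, NEDD4, a ubiquitin ligase, had 1256 to 1557 counts in hnCD16 and 0 or 1 in each FR library. NEDD4L fell 2.27-fold in FR1 and 2.13-fold in FR2, and NUMBL, a relative of the Notch inhibitor NUMB, rose 2.64-fold and 3.17-fold against hnCD16. ITCH, the most abundant, was at 57.4 ± 1.68 TPM for FR1, 44.8 ± 1.85 for FR2 and 47.3 ± 2.66 for hnCD16.

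Of 10 other targets tested, 8 were DEGs in FR1 against hnCD16, 4 higher and 4 lower, where 38.3% of all genes were. Of the 4 higher ones, CDKN1A, HEY1 and HES7 passed the low-count filter through the FR groups alone, so this count is a description. The 4 lower ones are T lineage genes: TCF7 fell 129-fold in FR1 and 140-fold in FR2 against hnCD16, BCL11B 10.7-fold and 10.1-fold, IL7R 7.70-fold and 3.96-fold, and GATA3 2.91-fold and 2.05-fold. TCF7 was at 140 ± 0.259 TPM in hnCD16 and 0.940 ± 0.293 in FR1. CDKN1A, an inhibitor of the cell cycle, rose from 13 summed counts in hnCD16 to 5728 in FR1 and 6387 in FR2, and TRIB2, a pseudokinase, rose 15.9-fold and 14.7-fold. HEY1 and HES7, relatives of HES1 named after their values were seen, had at most 1 count per hnCD16 library and 8 to 10 and 18 to 23 counts in FR1. HEY1 and APH1B were the 2 pathway genes that were DEGs in FR1 against FR2, where 1.93% of all genes were. Their ratios were 3.16 (2.05 to 5.01) and 5.08 (2.09 to 14.9), both lower in FR1.

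The genes whose profiles were most like those of the members were found by the root mean square distance between centred log2(CPM + 1) values over the 12 libraries, among 12340 genes, as a description. RASSF2 was nearest to NOTCH1 (distance 0.0672) and WIPF1 to NOTCH2 (0.0618). CTCFL was nearest to HES1 (0.126), KRT2 to HES4 (0.0900), HSD17B11 to DTX1 (0.110) and RENBP to MYC (0.0623). The second nearest were ICAM5, RMND5B, VAMP8, TNNT3, CALCOCO2 and TOP1MT in the same order. Adding 1 CPM shrinks the changes of low genes, so a near profile need not have a similar fold change. For example, RENBP was at 5.27 TPM in hnCD16 and 0.0233 in FR1, beside 99.9 and 20.2 for MYC. ICAM5 was at 1.43 TPM in hnCD16 and 0.0 in FR1, beside 37.1 and 9.61 for NOTCH1. All these profiles are drawn from the same 12 libraries and the same 2 pairs of groups.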

How the data were processed

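RNA of 12 libraries (4 groups of 3) was sequenced. Per the labels and the study's methods, the authors filtered reads with SOAPnuke, aligned them with HISAT2 2.1.0 to GRCh38.p13, and deposited RSEM 1.3.1 expected counts and TPM per gene and per transcript. The submitters' processing notes also name Bowtie2 2.3.4.3 and DESeq2 1.4.5. Strand-specific counting was not given in the sources used here. The methods name rRNA depletion and the sample descriptions oligo(dT) beads.

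Expected counts were rounded, filtered with filterByExpr and tested with edgeR 4.0.16 (TMM factors 0.939 to 1.11) in 1 fit of all groups without covariates, with Benjamini-Hochberg adjustment over 13657 genes; CPM values use TMM-scaled library sizes. A DEG differed by at least 1 on the log2 scale, in either direction, at an adjusted p no higher than 0.05. Levels between genes were compared as TPM. Ratios of low counts have exact binomial intervals at 95%, and a group at 0 was set at 3 counts. The gene coordinates are from GENCODE v44 on GRCh38, and promoter windows from RefSeq. On simulated counts for FR1 against hnCD16, 198 of 198 genes changed by 2 on the log2 scale were called, and 0 unchanged genes, among 13387. The simulation gave all genes the same dispersion and left all other genes equal between groups. In the real comparison 38.3% of genes were DEGs, so the simulation does not measure the error rate in these data.

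The members and lists were chosen with earlier results of these data known. All 9 members are named. Other pathway genes are named if they were DEGs in 1 direction in all 4 FR comparisons with a mean of at least 1 CPM (at most 20 genes), or had the highest mean TPM of their role. The test was repeated with DESeq2 1.42.0, with limma 3.58.1 after adding 1 or 0.1 to each TPM before taking log2, and with other scalings and filters, fits of 2 groups, a replicate block and leaving out each library. DLK1, HEY2, TRAC, TRBC1, TRBC2 and MS4A1 were not analysed here.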

Additional observations from a re-analysis of the deposited data

Results flagged for a closer look

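HES1 and DTX1 differed between the 2 FR groups by the test of FR1 against FR2, which gave log2 differences of -1.85 for HES1 (adjusted p = 0.0241) and -2.13 for DTX1 (adjusted p = 0.0149, edgeR), both lower in FR1 in all 3 libraries. They rest on summed counts of 6 against 23 for HES1 and 4 against 19 for DTX1. Neither gene passed the filter when FR1 and FR2 were fitted alone, and neither was called with limma on log2(TPM + 1). The HES1 call was lost without any of FR1 replicates 2 and 3 and FR2 replicates 1 and 2, and the DTX1 call without FR1 replicate 2.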

How the results depend on the processing

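In the 4 FR comparisons with hnCD16 or CTRL, 6 or 7 genes were called under 21 of 22 settings each; the seventh was PTCRA or NOTCH3. Requiring at least 10 counts in every library left 3 called in each of the 4, and 0 in FR1 against FR2, because HES1, HES4 and DTX1 are then removed. For the other pathway genes this filter left 11, 15, 13 and 14 called in FR1 and FR2 against hnCD16 and FR1 and FR2 against CTRL, and 0 in FR1 against FR2. With no fold threshold, 4 members were called in hnCD16 against CTRL. The pathway genes called were then 49, 49, 48 and 49 in the 4 FR comparisons. They were 35 in hnCD16 against CTRL and 24 in FR1 against FR2. The share of all genes called under each alternative setting is not given here, so the counts of genes called in this section are descriptions.

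In FR1 against FR2 the members called were 0 with limma on log2(TPM + 1), 1 with log2(TPM + 0.1), 0 with only the 2 groups compared, and 0 to 2 when 1 library was left out (0 without FR1 replicate 2, 1 without FR1 replicate 3, FR2 replicate 1 or FR2 replicate 2). The pathway genes called there were 0 with limma on log2(TPM + 1), 1 with the 2 groups alone and 2 to 4 when 1 library was left out (4 without FR2 replicate 2). On the log2(TPM + 1) scale, which understates the change of low genes, the difference was -0.39 for HES1 and -0.15 for DTX1.

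Signs changed only for differences that did not pass the test. HES4 in hnCD16 against CTRL was -0.026 with library size only, -0.021 with limma on log2(TPM + 1), -0.026 on log2(TPM + 0.1), and -0.032 to 0.229 when 1 library was left out. When 1 library was left out, NOTCH1 in FR1 against FR2 ranged from -0.077 to 0.033, NOTCH3 in FR1 against hnCD16 from -0.034 to 0.246 and HES1 in hnCD16 against CTRL from -0.105 to 0.072. Against CTRL, scaling by library size alone moved the median of all genes from -0.02 to -0.22 in FR1 and from -0.04 to -0.17 in FR2.

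Same-numbered replicates were not treated as pairs, since the mean correlation of their deviations lay between -0.0349 and 0.254 over the 6 comparisons and not every pair passed 0.1. With a replicate block 6 members were called in each of the 4 FR comparisons, 0 in hnCD16 against CTRL and 2 in FR1 against FR2, and 21, 26, 23, 25, 0 and 2 pathway genes. Depth limits NOTCH3, NRARP and PTCRA and the FR levels of HES1, HES4 and DTX1, at 23 counts or fewer per library.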
